A study of Capra hircus with 20 samples.

Results

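The 3p strands of the let-7 and miR-98 hairpins were followed after birth in the hypothalamus of Jining grey goats, a breed from China. Members were all rows of the deposited miRNA table named let-7a, b, c, d, e, f, g or i, or miR-98, with the arm suffix -3p, which gave 9 of 683 rows (chi-let-7a-3p, chi-let-7b-3p, chi-let-7c-3p, chi-let-7d-3p, chi-let-7e-3p, chi-let-7f-3p, chi-let-7g-3p, chi-let-7i-3p and chi-miR-98-3p, printed without the goat prefix from here on). The matching 5p rows served as the comparison for each hairpin. The groups were hypothalamus at day 1, day 60, day 120 and day 180, with 5 libraries each and 20 in all, from total RNA of goats that the design text of the series places under a shared environment and management. No treatment, genotype or batch is named in the labels, and nothing beyond the words biological replicates says how the animals were chosen, so p-values measure the spread between these libraries. The series title sets the comparison in the context of sexual development.

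Each let-7 hairpin is cut by Drosha and Dicer into a short duplex of a 5p and a 3p strand. The 5p strand is usually loaded into an Argonaute protein as the guide that represses target mRNAs, and the 3p strand, called the passenger, is usually discarded and degraded. The LIN28 proteins bind let-7 precursors and block their processing in immature cells, mature let-7 rises as animal cells differentiate, and in mice a LIN28 transgene delays puberty. miR-98 belongs to the same family and shares the let-7 seed on its 5p strand.

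Levels are in RPM, the reads of a row scaled to a common total of miRNA reads in each library, and are not divided by length, which is nearly equal between miRNAs. Libraries held 4018002 to 8324928 miRNA reads, with a median of 6978229.5, so 3 reads, taken as the floor of detection, corresponded to between 0.360 and 0.747 RPM. The brain and neuroendocrine markers miR-9-5p and miR-7-5p together took between 99302 and 446732 RPM in each library, and all 5 matched neuronal markers were present. Replicate 2 of day 1 stood apart: it was the shallowest library and had the lowest median Spearman correlation with the other libraries, 0.891. Replicates 2 and 3 of day 1 held the highest share of the rarer arm in 30% and 20% of the 120 arm pairs of the table, so the results they touch most are also given without them. Leaving out both together is an alternative chosen after seeing the data. In whole tissue, fewer cells of a type and less RNA per cell cannot be told apart.

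The 9 strands spanned more than 2 orders of magnitude in level. let-7b-3p and let-7d-3p were highest, at 262 ± 180 and 258 ± 138 RPM over all libraries (SD, n = 20). They could not be ordered, since let-7b-3p was the higher of the pair in 9 of 20 libraries. let-7e-3p averaged 70.3 ± 65.8 RPM and let-7a-3p 64.3 ± 35.4 RPM, also without a stable order, with let-7e-3p the higher in 6 of 20. let-7c-3p followed at 18.4 ± 10.2 RPM, below let-7a-3p in 20 of 20 libraries and above let-7f-3p in 20 of 20. The lowest levels were those of let-7f-3p at 4.17 ± 2.26 RPM, let-7i-3p at 3.37 ± 3.93 RPM, miR-98-3p at 1.47 ± 1.12 RPM and let-7g-3p at 1.08 ± 2.31 RPM. In this tail each strand exceeded the next in 15 or 16 of 20 libraries.

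**Figure D1:**
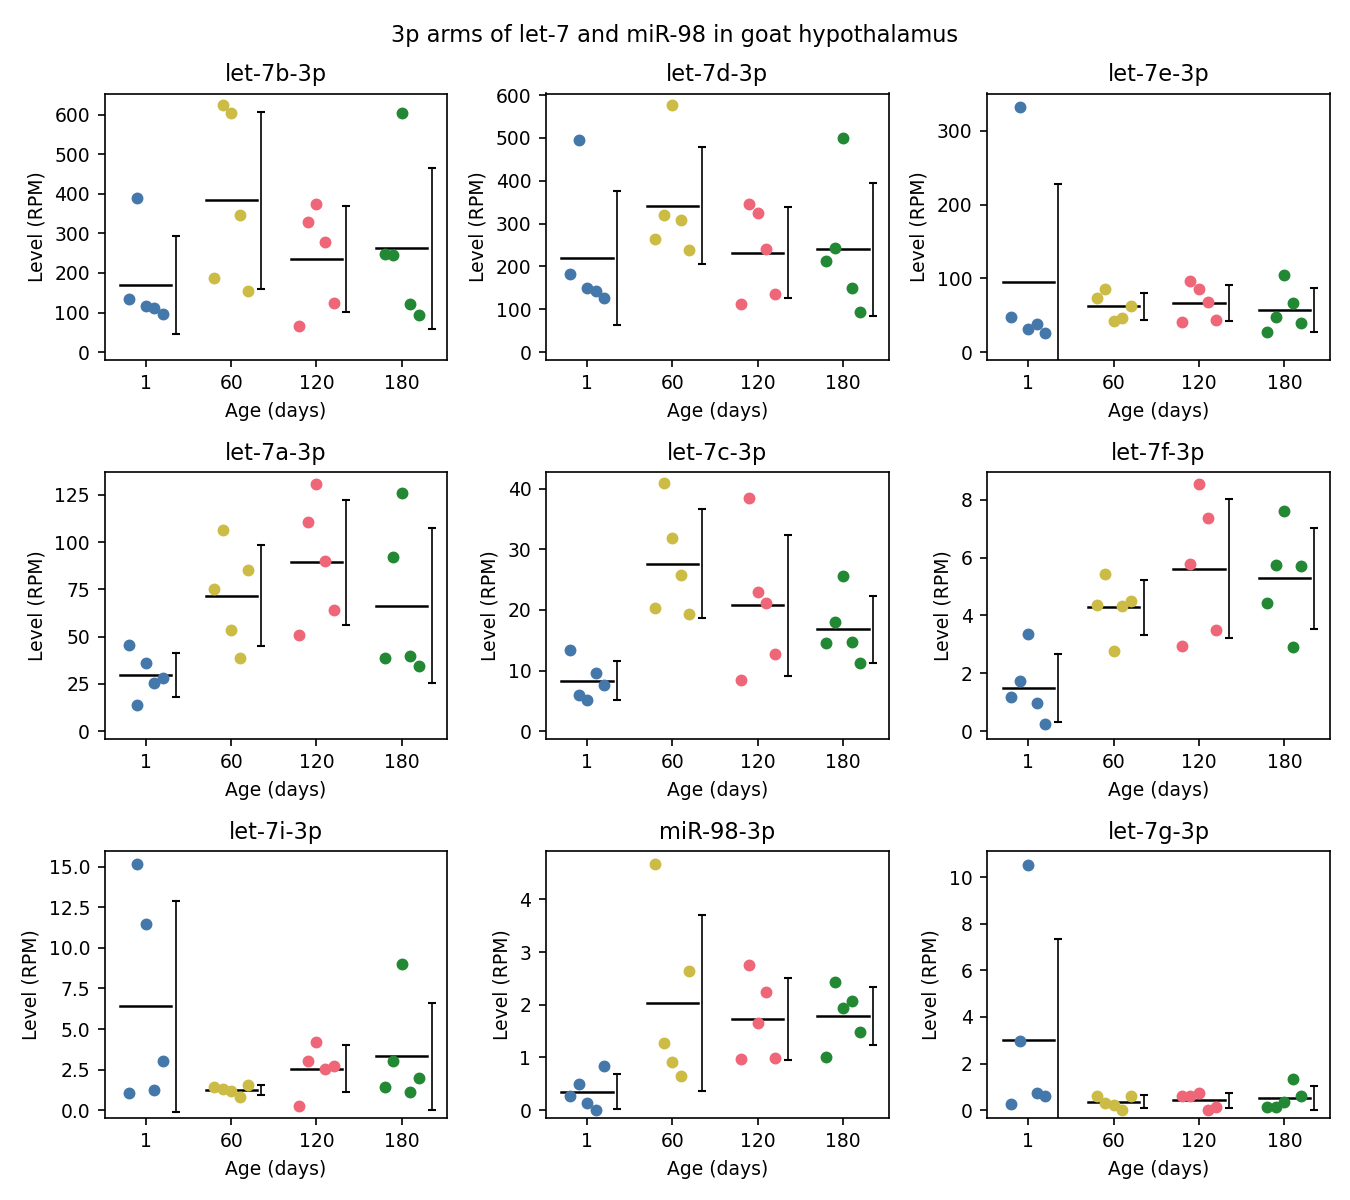
Level of each 3p strand in RPM (vertical axis, linear, a separate scale in each panel) against age in days; points are single libraries, horizontal lines stage means and bars the SD of 5 libraries, cut off below 0. let-7a-3p, let-7c-3p, let-7f-3p and miR-98-3p lie lowest on day 1, while let-7e-3p, let-7g-3p and let-7i-3p have their highest points in 1 or 2 libraries of day 1.

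The order of the 3p strands was not that of their 5p partners. let-7f-5p, the highest of the guides, averaged 67219 ± 18954 RPM over the 20 libraries, yet its 3p strand was among the rarest. let-7d-5p was the lowest guide at 1204 ± 680 RPM, although let-7d-3p was one of the highest passengers. The share of the 3p strand among the reads of both arms puts this on a single scale. It was 18.7 ± 7.21% for let-7d, 1.60 ± 1.85% for let-7e and 1.59 ± 0.474% for let-7b (SD, n = 20). It was 0.191 ± 0.0584% for let-7c, 0.167 ± 0.0836% for let-7a and 0.0745 ± 0.0473% for miR-98. The shares of let-7i, let-7f and let-7g were smaller still, at 0.0165 ± 0.0341%, 0.00670 ± 0.00366% and 0.00480 ± 0.0123%. The order of the first 2 of these rested on few libraries: the medians were 0.00568% for let-7i, 0.00728% for let-7f and 0.00109% for let-7g. Without replicates 2 and 3 of day 1 the means were 0.00667 ± 0.00579%, 0.00607 ± 0.00326% and 0.00104 ± 0.000908% (SD, n = 18). The mean of let-7e was likewise set by replicate 2 of day 1, without which it was 1.19 ± 0.330% (n = 19). All 9 hairpins were therefore 5p-dominant in every library, but let-7d far less than the others. Of the 120 tested arm pairs in the whole series, 64 had a mean 3p share under 50%. let-7d ranked within this spread, with 48 pairs below it in mean share. let-7 guides differ from each other by very few bases, and how the authors divided reads that match several of them is not given in the sources used here, so the share of a single hairpin carries that uncertainty.

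**Figure D2:**
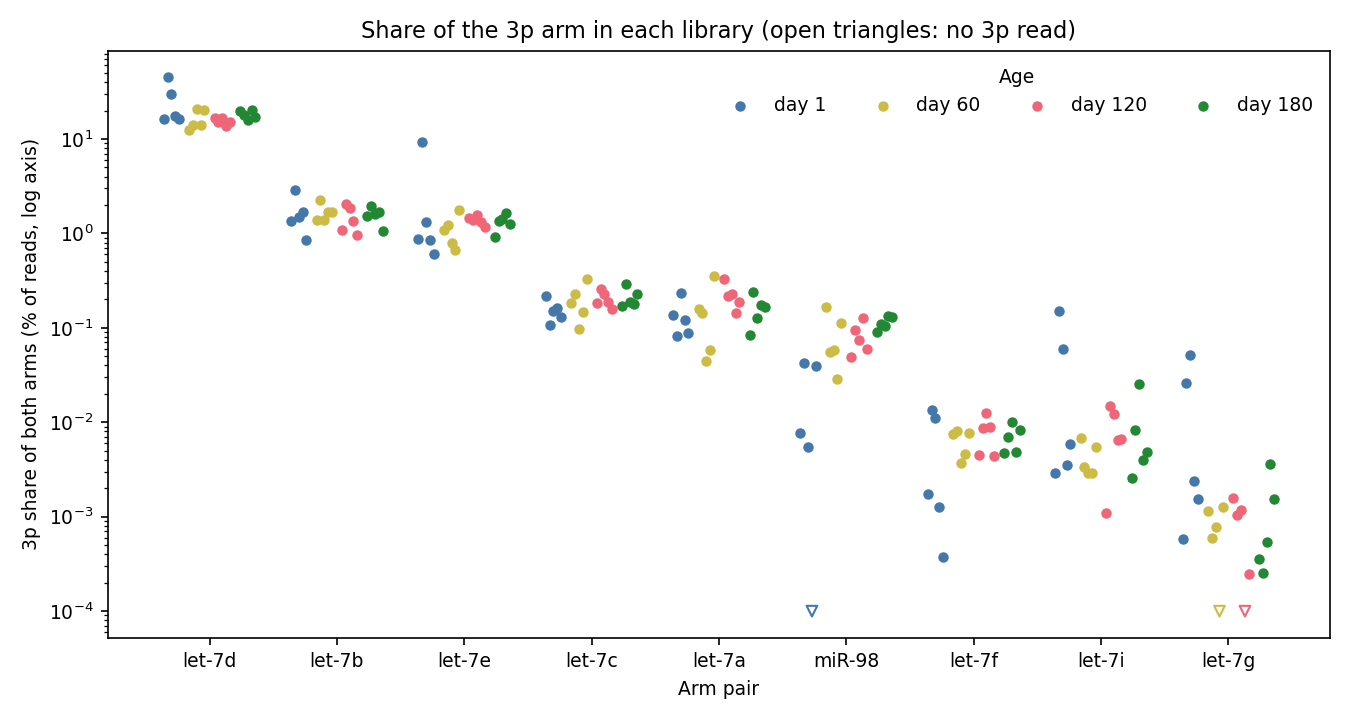
Share of the 3p strand among the reads of both arms in each library (vertical axis, percent, log scale) for the 9 hairpins, coloured by age; open triangles at the bottom are libraries with no 3p read. let-7d lies between 12.6% and 44.8%, and the shares of the other hairpins are below 10%.

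Each later age was compared with day 1 to see which passengers change after birth. let-7c-3p rose by day 60 and let-7f-3p was raised at day 120 and day 180, each against day 1. let-7a-3p and miR-98-3p were higher than on day 1 in their means at all 3 later ages, at unadjusted p-values under 0.05 that did not pass adjustment in the main fit. Under alternative settings let-7a-3p was called in 2, 6 and 1 of 33 at days 60, 120 and 180. For miR-98-3p it was 5, 4 and 5 of 32. let-7c-3p at day 60 was called in 21 of 33, and let-7f-3p in 25 and 15 of 32 at days 120 and 180. Several of these settings also called more of all rows, as given below. Of the 9 members, 8 reached 1 RPM in at least 5 libraries and were tested with limma on log2(RPM + 1) among 414 rows, with Benjamini-Hochberg adjustment over all of them at 0.05. let-7g-3p was not tested. miR-98-3p entered through the later ages alone, since none of its 5 day 1 libraries reached 1 RPM. let-7f-3p reached it in 3 of 5 libraries on day 1 and in 5 of 5 at each later age. Its day 1 libraries alone did not meet the filter either.

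let-7c-3p is the passenger of a hairpin that lies next to MIR99A and MIR125B in the RefSeq annotation of assembly ARS1.2. It had 20.3, 40.9, 31.9, 25.8 and 19.3 RPM in the day 60 libraries, against 13.3, 5.97, 5.19, 9.63 and 7.60 RPM in the day 1 libraries. Every day 60 library lay above every day 1 library. Such a separation upward was found for 0.725% of the 414 tested rows, and let-7c-3p was the only member among them. The log2 difference was 1.63 ± 0.44 (SE; adjusted p = 0.0399 by limma), and 0.725% of the tested rows were called higher in that comparison, 3.86% in either direction. At later ages the levels were 8.44, 38.6, 22.9, 21.1 and 12.7 RPM on day 120 and 14.5, 18.0, 25.7, 14.7 and 11.2 RPM on day 180. Both groups overlapped day 1, with differences of 1.12 ± 0.44 (adjusted p = 0.148 by limma) at day 120 and 0.95 ± 0.44 (adjusted p = 0.215) at day 180. The day 60 call was lost when any of 9 single libraries was left out (replicates 2 and 3 of day 1, replicates 2, 3 and 4 of day 60, replicates 3, 4 and 5 of day 120 and replicate 2 of day 180), with log2 differences of 1.48 to 1.64 and adjusted p-values of 0.0501 to 0.107. Without replicates 2 and 3 of day 1 together the difference was 1.33 (adjusted p = 0.192 by limma).

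let-7f-3p, the passenger of the highest guide, is annotated to a hairpin that neighbours let-7d. It had 2.93, 5.77, 8.53, 7.36 and 3.49 RPM in the day 120 libraries, against 1.19, 1.74, 3.37, 0.975 and 0.241 RPM in the day 1 libraries. The day 180 libraries held 4.45, 5.73, 7.61, 2.91 and 5.72 RPM. At each of these ages 4 of 5 libraries exceeded all of day 1, and 1 library fell below replicate 3 of day 1. The log2 difference from day 1 was 1.44 ± 0.39 (adjusted p = 0.0354 by limma) at day 120, where 1.45% of the tested rows were called higher and 3.38% in either direction. It was 1.40 ± 0.39 (adjusted p = 0.0424 by limma) at day 180, where 0.725% were called higher and 3.38% in either direction. At day 60 the libraries had 4.37, 5.43, 2.76, 4.32 and 4.51 RPM, a difference of 1.18 ± 0.39 from day 1 (adjusted p = 0.0748 by limma). On day 1 these levels rest on 2 to 24 reads per library. Without replicates 2 and 3 of day 1 the differences were 1.57 (adjusted p = 0.0552 by limma) at day 60, 1.84 (adjusted p = 0.0141) at day 120 and 1.80 (adjusted p = 0.0109) at day 180.

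Leaving out single libraries ended the let-7f-3p call at day 120 in 5 of 20 cases (replicates 1 and 5 of day 1 and replicates 2, 3 and 4 of day 120; log2 1.22 to 1.42, adjusted p 0.0616 to 0.110). At day 180 it ended in 13 of 20 cases (replicates 1, 2, 4 and 5 of day 1, replicates 2 and 5 of day 60, replicates 2, 4 and 5 of day 120 and replicates 1, 2, 3 and 5 of day 180; log2 1.18 to 1.47, adjusted p 0.0516 to 0.112).

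let-7a-3p is annotated to the hairpin next to let-7b. It had 50.9, 111, 131, 89.9 and 63.8 RPM in the day 120 libraries, against 45.4, 13.9, 35.9, 25.3 and 28.0 RPM in the day 1 libraries. All day 120 libraries lay above all day 1 libraries, a separation upward that 3.86% of the tested rows had. The log2 difference was 1.57 ± 0.47 (adjusted p = 0.0614 by limma). The day 60 libraries held 75.3, 106, 53.3, 38.7 and 85.3 RPM and the day 180 libraries 38.9, 92.4, 126, 39.7 and 34.5 RPM. Both overlapped day 1, with log2 differences of 1.26 ± 0.47 (adjusted p = 0.103 by limma) and 1.03 ± 0.47 (adjusted p = 0.215). Without replicate 2 of day 1 the differences at days 60, 120 and 180 were 1.02, 1.33 and 0.79 (adjusted p = 0.186, 0.141 and 0.434 by limma).

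miR-98-3p was below the floor of 3 reads in every day 1 library but replicate 5. It had 0.264, 0.498, 0.140, 0 and 0.845 RPM in the day 1 libraries, which is 12 reads in all. It had 4.68, 1.28, 0.919, 0.640 and 2.65 RPM on day 60, 0.978, 2.76, 1.65, 2.24 and 0.998 RPM on day 120, and 1.00, 2.43, 1.95, 2.06 and 1.49 RPM on day 180. The day 120 and day 180 libraries all lay above the day 1 libraries, and 1 day 60 library fell below the highest of day 1. Such a separation upward occurred for 3.86% of the tested rows at day 120 and 0.725% at day 180, and a row near 0 on day 1 passed the filter on low values only through its later ages. The log2(RPM + 1) differences from day 1 were 1.04, 1.00 and 1.06 at days 60, 120 and 180, each ± 0.35, with adjusted p-values of 0.0766, 0.113 and 0.0932 by limma. On this scale the change of so low a strand is understated.

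The abundant strands varied widely within each age. let-7b-3p averaged 170 ± 124, 383 ± 224, 235 ± 133 and 262 ± 203 RPM at days 1, 60, 120 and 180 (SD, n = 5 each). let-7d-3p averaged 219 ± 156, 342 ± 136, 232 ± 106 and 240 ± 156 RPM at the same ages. For both strands the day 1 mean carried 1 high library, replicate 2, with 390 RPM of let-7b-3p and 496 RPM of let-7d-3p beside at most 135 and 183 RPM in the other 4. The log2 difference of day 60 from day 1 was 1.16 ± 0.58 for let-7b-3p (adjusted p = 0.251 by limma) and 0.77 ± 0.49 for let-7d-3p (adjusted p = 0.384). Without replicate 2 of day 1 these were 1.52 (adjusted p = 0.132) and 1.12 (adjusted p = 0.149). At days 120 and 180 the differences from day 1 were 0.42 and 0.53 for let-7b-3p, and 0.77 and 0.89 without replicate 2. Those of let-7d-3p were 0.15 and 0.12, and 0.49 and 0.46 without it. None of these passed the test, though let-7b-3p at day 60 was called in 2 of 33 alternative settings.

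let-7e-3p, from the hairpin beside MIR99B, averaged 95.1 ± 133, 62.3 ± 18.3, 66.9 ± 24.5 and 57.1 ± 30.2 RPM at days 1, 60, 120 and 180. The day 1 libraries had 47.9, 332, 31.6, 37.5 and 26.1 RPM, so that replicate 2 alone set their mean. Without it day 1 averaged 35.8 ± 9.35 RPM (n = 4), and its mean was then lower on day 1 than at any other age. The log2 difference of day 60 from day 1 was 0.13 ± 0.56 with all libraries and 0.77 without replicate 2 (adjusted p = 0.941 and 0.307 by limma). At day 180 the difference turned direction: it was -0.10 with all libraries and 0.55 without that library (adjusted p = 0.936 and 0.558).

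let-7i-3p and let-7g-3p, unlike the other rare strands, had their highest means on day 1. let-7i-3p had 1.40, 1.28, 1.15, 0.800 and 1.56 RPM in the day 60 libraries, against 1.06, 15.2, 11.5, 1.22 and 3.02 RPM in the day 1 libraries. The 2 high day 1 libraries were replicates 2 and 3, and the other 3 were within the range of later ages. The log2 difference of day 60 from day 1 was -1.22 ± 0.54 (adjusted p = 0.195 by limma), and -0.25 without those 2 libraries (adjusted p = 0.820). On recovered reads with all libraries, edgeR with TMM called it lower at day 60 (log2 -2.04, adjusted p = 0.0464), where it called 13.8% of the 414 rows in either direction. let-7i-3p averaged 2.55 ± 1.44 RPM on day 120 and 3.31 ± 3.28 RPM on day 180. let-7g-3p had 0.264, 2.99, 10.5, 0.731 and 0.604 RPM on day 1, high in the same 2 libraries, and averaged 0.359 ± 0.268, 0.417 ± 0.332 and 0.519 ± 0.497 RPM at days 60, 120 and 180, levels of at most a few reads in most libraries.

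Across the tested members the median log2 difference from day 1 was 1.10 at day 60, 0.71 at day 120 and 0.74 at day 180, beside -0.04, -0.12 and -0.25 over all 414 rows. Of the 8 members 7, 7 and 6 had differences above 0, where 46.6%, 43.7% and 37.4% of all rows did. At an unadjusted p under 0.05, 4 of the 8 members were higher at each age, where 7.49%, 8.7% and 5.8% of the rows were. These counts include miR-98-3p, whose entry into the test required high later ages, and all 3 comparisons share the day 1 libraries. let-7f-3p also met the filter only with its later ages. Without replicate 2 of day 1, let-7a-3p and let-7c-3p at day 180 had unadjusted p-values of 0.0976 and 0.0635 by limma. let-7b-3p and let-7d-3p at day 60 then came under 0.05, at 0.0146 and 0.0229. Between neighbouring later ages limma called no member and no row of the table (0%), for day 120 against day 60 and for day 180 against day 120. At an unadjusted p under 0.05 there were 13 (3.14%) and 3 (0.725%) rows, none of them a member, and edgeR and DESeq2 also called none. The F test over the 4 ages called 8 rows (1.93%) and no member, with 4 members at an unadjusted p under 0.05, as had 16.9% of the rows. Its smallest adjusted p among members was 0.0830, for let-7f-3p.

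**Figure D3:**
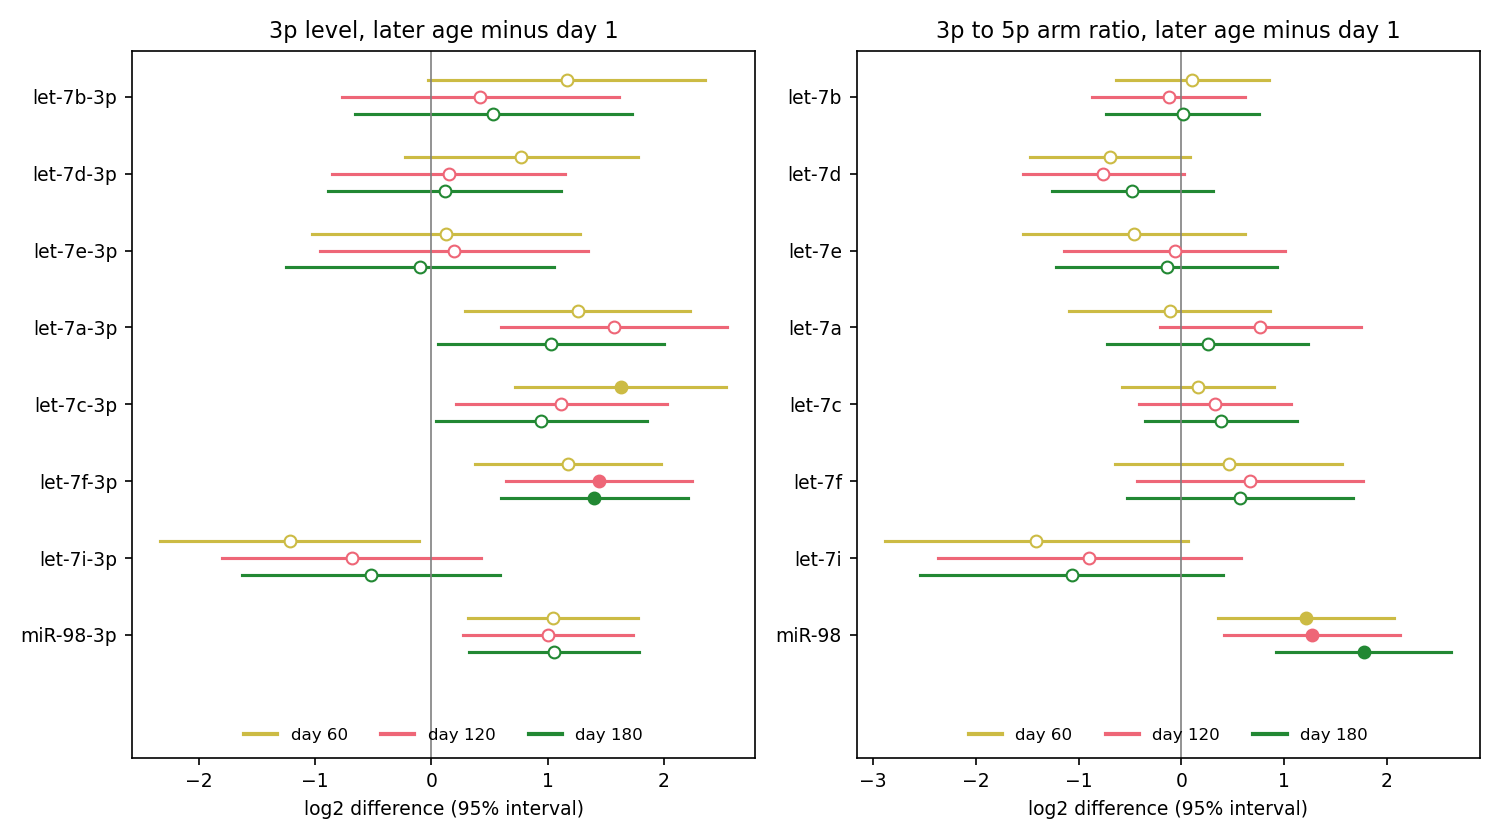
Log2 differences of days 60, 120 and 180 from day 1 for the level of each 3p strand (left) and for its ratio to the 5p strand (right), with 95% intervals; filled points have an adjusted p under 0.05 in limma. Filled on the left are let-7c-3p at day 60 (1.63) and let-7f-3p at days 120 and 180 (1.44 and 1.40), and on the right miR-98 at all 3 ages.

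The 3p strand was also set against its own 5p strand in each library. The tested ratio was log2(3p RPM + 1) minus log2(5p RPM + 1), so that for a strand near 0 RPM the added 1 RPM sets its value. miR-98 was the only member pair whose ratio was called. Its 3p strand had passed the filter through the later ages, with 0 of 5 libraries at 1 RPM on day 1 and 3, 3 and 5 at days 60, 120 and 180, so the call is a description of a pair that its high groups selected. The 3p share of miR-98 was 0.165, 0.0554, 0.0584, 0.0285 and 0.113% in the day 60 libraries, against 0.00766, 0.0424, 0.00542, 0 and 0.0399% in the day 1 libraries. It was 0.0490, 0.0942, 0.0749, 0.127 and 0.0595% on day 120 and 0.0913, 0.109, 0.104, 0.135 and 0.130% on day 180. All day 120 and day 180 libraries lay above all day 1 libraries, and 1 day 60 library did not. Such a separation upward of the 3p share occurred in 4.17%, 9.17% and 5% of the 120 arm pairs at days 60, 120 and 180. Counting error was wide at these shares: exact Clopper-Pearson 95% intervals reached 0.0785 to 0.216% for the highest day 180 library and 0.00514 to 0.153% for the highest day 1 library. The day 1 library without a 3p read had 35821 reads of both arms, which allows a share of up to 0.00837%. The intervals and floors cover counting error only, because PCR copies are not independent molecules.

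In limma over 120 arm pairs, the log2 ratio of miR-98 was higher than on day 1 by 1.21 ± 0.41 at day 60 (adjusted p = 0.0367), 1.27 ± 0.41 at day 120 (adjusted p = 0.0489) and 1.77 ± 0.41 at day 180 (adjusted p = 0.0125). Of all arm pairs 12.5%, 7.5% and 5.83% were called higher at those ages, and 23.3%, 10.8% and 8.33% in either direction. With 5 RPM added in place of 1 RPM the calls at days 60 and 120 ended, with differences of 0.54 (adjusted p = 0.254) and 0.60 (adjusted p = 0.202). Over all alternatives the difference ran from 0.54 to 2.46 at day 60 (adjusted p 0.0126 to 0.254), from 0.60 to 2.56 at day 120 (adjusted p 0.0107 to 0.202) and from 1.06 to 3.11 at day 180 (adjusted p 0.000815 to 0.102). The F test gave an adjusted p of 0.0313 for miR-98, with 8.33% of the pairs called. miR-98-5p, the guide, had lower means at the later ages: it averaged 2738 ± 1225, 2257 ± 447, 2110 ± 502 and 1576 ± 484 RPM at days 1, 60, 120 and 180, and its log2 difference of day 180 from day 1 was -0.72 ± 0.37 (adjusted p = 0.288 by limma). Replicate 4 of day 1 had the most miR-98-5p of all libraries, 4365 RPM, and no read of the 3p strand. Without replicate 2 of day 1 the ratio differences were 1.53, 1.59 and 2.09 (adjusted p = 0.0132, 0.0120 and 0.000815).

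The miR-98 call at day 180 was lost by leaving out replicate 5 of day 180 alone (log2 1.71, adjusted p = 0.0502). The day 60 call was lost without any of 8 libraries, replicates 1, 3 and 4 of day 1 and each of the 5 of day 60 (log2 0.91 to 1.40, adjusted p 0.0528 to 0.0968). The day 120 call was lost without any of 18, that is all libraries other than replicates 2 and 5 of day 1 (log2 0.97 to 1.36, adjusted p 0.0511 to 0.141).

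For the other 7 pairs the ratio was not called at any age. let-7b had log2 differences from day 1 of 0.11, -0.12 and 0.01 at days 60, 120 and 180, each ± 0.36. Without replicate 2 of day 1 they were 0.34, 0.11 and 0.24, and without replicates 2 and 3 they were 0.40, 0.17 and 0.31. With all libraries the 95% interval of its day 180 difference ran from -0.73 to 0.75. The 3p share of let-7b was 1.65 ± 0.757, 1.68 ± 0.358, 1.46 ± 0.473 and 1.57 ± 0.328% at the 4 ages. let-7d had shares of 25.0 ± 12.5, 16.3 ± 3.82, 15.4 ± 1.13 and 18.2 ± 1.92%. Its day 1 libraries had 16.4, 44.8, 30.1, 17.5 and 16.1%, so that the 2 high ones were replicates 2 and 3. The log2 ratio of let-7d at day 120 differed from day 1 by -0.76 ± 0.38 (adjusted p = 0.166 by limma), and by -0.14 without those 2 libraries (adjusted p = 0.777).

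The let-7f differences also moved upward when the same libraries were left out, but they grew in size where that of let-7d shrank. Its 3p share on day 1 was 0.00174, 0.0137, 0.0110, 0.00127 and 0.000374%, with replicates 2 and 3 again the high ones. With all libraries its log2 ratio differed from day 1 by 0.46, 0.67 and 0.57 at days 60, 120 and 180, each ± 0.53 (adjusted p = 0.562, 0.393 and 0.489 by limma). Without replicates 2 and 3 of day 1 the differences were 1.58, 1.79 and 1.69 (adjusted p = 0.00970, 0.00436 and 0.00485), an alternative chosen after seeing the data. Replicates 2 and 3 of day 1 also had the lowest let-7f-5p levels of the 20 libraries, 12760 and 30478 RPM. Whether what sets these libraries apart has a part in the day 1 values was not tested.

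Both strands of a hairpin start from the same precursor. Over the 20 libraries the levels of both arms, as log2(RPM + 1), correlated for let-7b (Pearson r = 0.908, Spearman rho = 0.902), let-7c (0.860 and 0.911), let-7d (0.763 and 0.800) and let-7a (0.598 and 0.642). The permutation p-values of these Pearson correlations, adjusted over 120 arm pairs, were 0.000120, 0.000171, 0.000764 and 0.0167, and those of the Spearman correlations 0.000133, 0.000133, 0.000646 and 0.0104. They came from 100000 permutations, which cannot give a raw p under 1e-05. Without the 2 libraries farthest from the median of the 5p level, r was 0.880, 0.855, 0.732 and 0.624 for the 4 pairs, and with the stage means removed 0.890, 0.760, 0.754 and 0.464. Both arms of a pair share the library, its depth and its scaling. Of all 120 pairs 44.2% passed with r above 0, beside 4 of the 8 member pairs. The median r over all pairs was 0.483, and 0.528 with the stage means removed, above the 0.464 of let-7a.

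let-7e stood between, with r = 0.316 (adjusted p = 0.244) and rho = 0.562 (adjusted p = 0.0299, permutation tests), and r = 0.690 without replicate 2 of day 1. For the rare passengers no correlation with the guide was detectable at this depth: r was 0.261 for let-7f, -0.124 for miR-98 and -0.409 for let-7i, with adjusted permutation p-values of 0.325, 0.671 and 0.126. Their rho values were 0.284, -0.0406 and -0.0722 (adjusted p = 0.299, 0.916 and 0.820 by permutation). The r values of miR-98 and let-7i turned direction with the libraries used, and that of let-7f only with the stage means removed. Without the 2 libraries farthest from the median of the 5p level, r was 0.158 for let-7f, 0.0853 for miR-98 and 0.255 for let-7i. Without replicate 2 of day 1 it was 0.124, -0.224 and -0.0656, and with the stage means removed -0.326, 0.207 and -0.444.

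**Figure D4:**
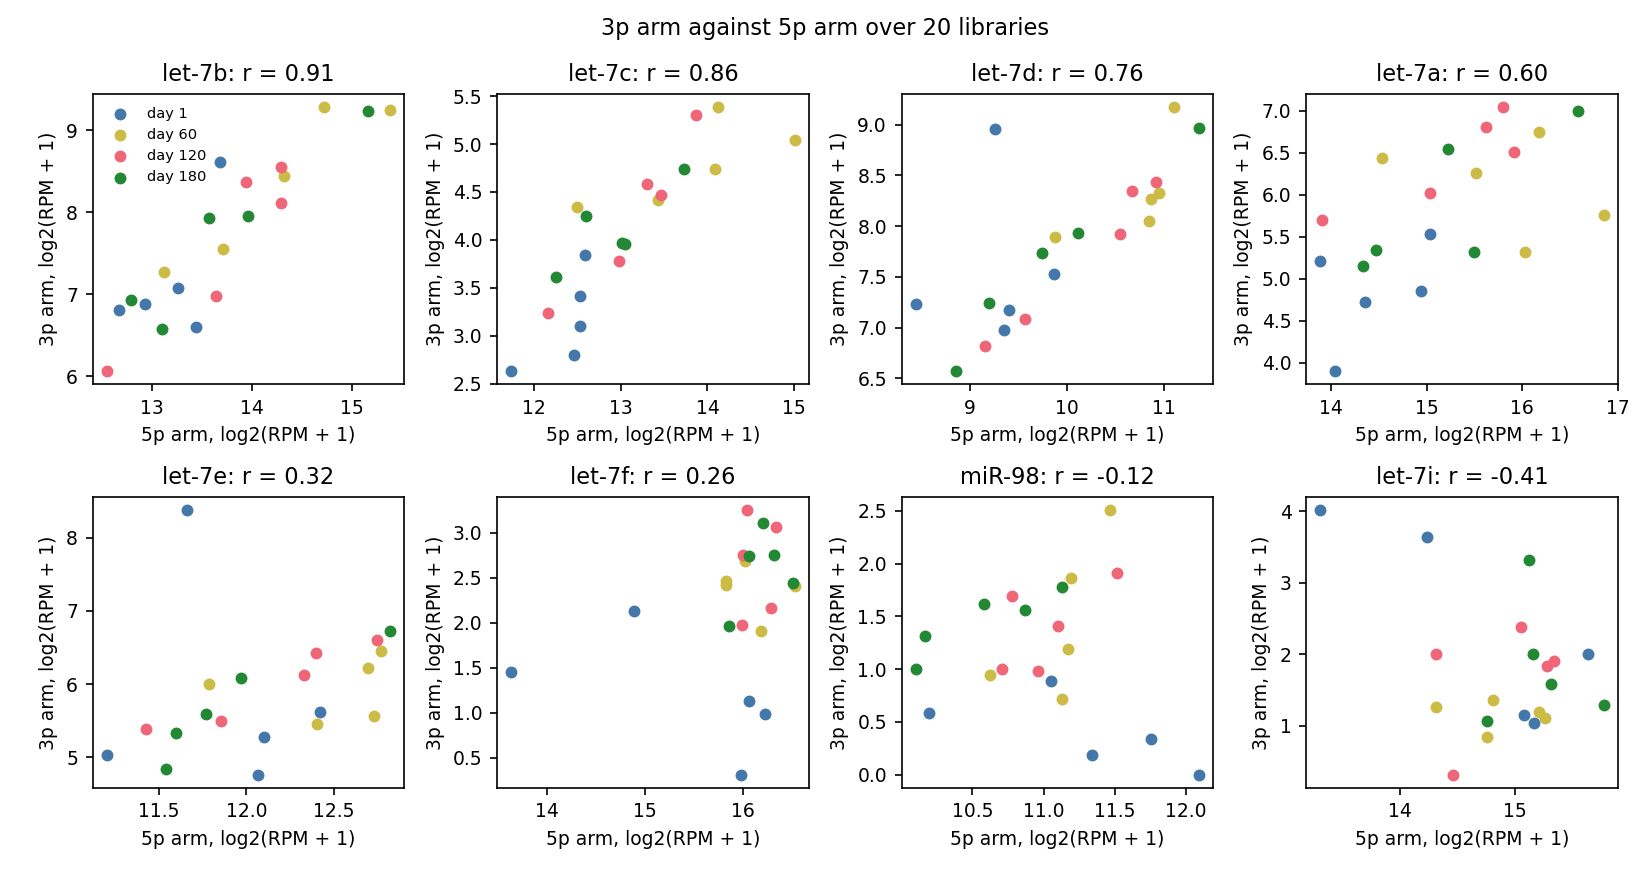
Level of the 3p strand (vertical axis) against that of the 5p strand (horizontal axis), both as log2(RPM + 1), for 8 hairpins in the 20 libraries, coloured by age, with Pearson's r in each title. The points of let-7b, let-7c and let-7d rise together (r = 0.908, 0.860 and 0.763), while r was 0.261 for let-7f, -0.409 for let-7i and -0.124 for miR-98.

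Among the 8 tested passengers themselves, the 28 pairwise Pearson correlations over the 20 libraries ran from -0.309 to 0.932 with a median of 0.379, as a description of libraries that share depth and scaling. let-7b-3p and let-7d-3p were the most alike, at 0.932 and at 0.937 without replicate 2 of day 1, although their genes are not neighbours in the annotation. The annotated neighbours let-7a-3p and let-7b-3p had r = 0.418, and 0.638 without that library. let-7d-3p and let-7f-3p, also neighbours, had r = 0.339, and 0.463 without it. let-7a-3p had r = 0.756 with let-7c-3p and 0.739 with let-7f-3p, or 0.707 and 0.745 without that library. Its correlation with let-7e-3p moved most among those of let-7a-3p, at 0.119 with all libraries and 0.841 without replicate 2. Neighbours here are miRNA genes within 100 kb, and the annotation lists 1 gene for each of the 9 names. Whether the reads of a name came from that gene alone was not tested.

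Of the 5p partners, 9 were tested and 1 was called in any comparison with day 1. let-7c-5p rose with its passenger at day 60, by 1.46 ± 0.42 on the log2 scale (adjusted p = 0.0494 by limma), with 17012 ± 10206 RPM on day 60 and 5393 ± 1125 RPM on day 1. The call was lost without replicate 2 of day 1 (log2 1.49, adjusted p = 0.0781) and without replicates 2 and 3 together (log2 1.28, adjusted p = 0.233). Of the 9 guides, 8 had a difference from day 1 above 0 at each later age, and miR-98-5p was the exception. Over all rows the shares above 0 were 46.6%, 43.7% and 37.4%, all against the same day 1 libraries. Without replicates 2 and 3 of day 1, let-7i-5p also fell below 0 at days 60, 120 and 180 (log2 -0.42, -0.40 and -0.06). So did let-7f-5p at day 60 (-0.01) and let-7e-5p at days 120 and 180 (-0.05 and -0.26). let-7a-5p, let-7b-5p, let-7c-5p, let-7d-5p and let-7g-5p stayed above 0 at each later age. Of the 10 tested strands of miR-99a, miR-99b, miR-100, miR-125a and miR-125b, which share clusters with let-7 genes in mammals, 1 was called at day 60, where 3.86% of all rows were, and none at days 120 or 180. It was miR-99a-3p, the passenger from the hairpin beside let-7c, which fell at day 60. It had 7.02, 3.04, 1.15, 0.160 and 8.71 RPM in the day 60 libraries, against 14.8, 53.3, 25.1, 9.38 and 12.1 RPM in the day 1 libraries, a log2 difference of -2.38 ± 0.56 (adjusted p = 0.0188 by limma). The 2 highest day 1 libraries of miR-99a-3p were replicates 2 and 3, and all day 60 libraries were below all day 1 libraries, as for 2.42% of the tested rows. Day 1 averaged 22.9 ± 18.0 RPM with all libraries and 12.1 ± 2.70 RPM without those 2 (n = 3). The call was lost without replicate 2 (log2 -2.02, adjusted p = 0.0526 by limma) and without both (log2 -1.77, adjusted p = 0.183).

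Outside the family, the miRNAs whose levels over the 20 libraries were most like the mean standardised level of the tested members were miR-3432-3p (r = 0.845), miR-361-5p (0.794), miR-16b-5p (0.788), miR-30c-5p (0.784) and miR-30f-5p (0.781), among 306 candidates.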

How the data were processed

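Small RNA of 20 hypothalamus libraries was sequenced from total RNA; per the labels' protocols it was extracted with Trizol and made into libraries with a NEBNext small RNA kit. The authors deposited 1 table of 683 rows, 407 of them named miRNAs and 276 numbered predictions, in RPM, although its headers say TPM: values were not divided by length, and low values were whole multiples of 1 read. A further deposited column holds the sum of each row, a score that was not used. Bowtie is named in the submitters' processing notes; the build, the miRNA catalogue and the counter were not given in the sources used here. Dividing by the step gave whole reads for 100% of values below 1000 reads, within 0.1 read. Between libraries of an age the counts differed by a chi-square of at least 357 per degree of freedom (40 pairs), so each was kept as its own replicate.

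Rows at 1 RPM or more in at least 5 libraries (414), and pairs with both arms so (120 of 151), were fitted with limma 3.58.1 (R 4.3.3; eBayes with a variance trend, two-sided) on log2(RPM + 1), or on the difference of the arms, with 4 stage means and no covariate; Benjamini-Hochberg adjustment ran over all rows or pairs at 0.05. The scripts were tested on simulated data. Alternatives were edgeR 4.0.16 and DESeq2 1.42.0 on the recovered reads, other pseudocounts, filters and scalings, the replicate block and leaving out libraries. Named were all members with their 5p rows, cluster strands past the threshold, and the 5 miRNAs most like the members whose mean reached 10 RPM at some age. The members and lists were chosen with earlier results of these data known. Gene neighbours come from the RefSeq table of assembly ARS1.2.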

Additional observations from a re-analysis of the deposited data

Results flagged for a closer look

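In 8 of 72 groups of 5 libraries, 1 library lay far from the other 4 by Dixon's criterion. The criterion flags about 1 in 20 groups of independent, normally distributed values. Levels and shares were used here without a log scale, and level and share of a strand are not independent. All 8 flags were at the high end, so no excess over chance is read from their number. Replicate 2 of day 1 held 4 of the 8. It had 390 RPM of let-7b-3p, where the other day 1 libraries had 96.0 to 135 RPM, and 496 RPM of let-7d-3p, where they had 125 to 183 RPM. It had 332 RPM of let-7e-3p, where they had 26.1 to 47.9 RPM, and a let-7e 3p share of 9.33%, where they had 0.606 to 1.32%. Replicate 3 of day 1 had 10.5 RPM of let-7g-3p, where the others had 0.264 to 2.99 RPM.

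Replicate 3 of day 60 had 578 RPM of let-7d-3p, where the other day 60 libraries had 237 to 321 RPM. Replicate 3 of day 180 had 9.02 RPM of let-7i-3p, where the others had 1.09 to 3.01 RPM, and a let-7i 3p share of 0.0253%, where they had 0.00256 to 0.00822%. The 3 libraries highest in let-7d-3p were the 3 shallowest of the series, with 4353386 reads in replicate 3 of day 60, 5651162 in replicate 3 of day 180 and 4018002 in replicate 2 of day 1. The part of depth in these levels was not tested.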

How the results depend on the processing

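Each comparison with day 1 rested on 1 called strand, or none for the F test of levels, and most counts moved with the processing; the cause was not tested. For levels at days 60, 120 and 180 against day 1, where 1 member each was called, limma called 4, 3 and 2 after median-of-ratios scaling and 3, 4 and 3 after quantile scaling. edgeR called 5, 3 and 2 with TMM and 3, 2 and 2 with library size alone, and DESeq2 called 6, 4 and 3; at day 60 all 3 of these called let-7i-3p lower and the others higher. Over all rows limma called 16, 14 and 14, edgeR with TMM 57, 43 and 22 and DESeq2 86, 74 and 61. After median-of-ratios scaling limma called 40, 36 and 23 of all rows, and after quantile scaling 34, 39 and 25. For the other alternatives, and for the F tests under any alternative, no count over all rows is given here. With no filter, or with only the 2 ages compared in the fit, 0 were called at each age. The 10 RPM filter gave 0 at days 120 and 180 because it drops let-7f-3p, pseudocounts of 0.1 and 5 RPM gave 0 at day 180, and no variance trend gave 2 at day 120. For the F test of levels, with 0 called, median-of-ratios and quantile scaling gave 3 each, edgeR with TMM 1 and DESeq2 4. The arm ratio, with miR-98 called in each comparison and in the F test, gave 0 under the 10 RPM filter, which drops miR-98-3p, and 0 at days 60, 120 and 180 with only the 2 ages compared. A pseudocount of 5 RPM gave 0 at days 60 and 120 and in the F test, and no filter gave 2 at day 60 (let-7g added) and 0 at day 120. Leaving out single libraries gave 0 to 1 for each comparison with day 1 and for the F test of the ratio, and 0 throughout for the F test of levels and for neighbouring ages. Leaving out replicates 2 and 3 of day 1 together, chosen after seeing the data, gave 0 called levels at day 60, 1 in the F test and 2 called ratios in each of the 4 ratio tests. No called value changed sign under any alternative. Of 48 combinations at an unadjusted p of 0.05 or more, 30 turned direction in at least 1. The median log2 difference of all rows at day 180 was -0.25 in RPM and -0.00285 after quantile scaling, a shift of the scale that changes there are relative to.

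The replicate numbers did not pair the libraries: same-numbered deviations correlated at -0.714 to 0.535 (median 0.0695) over 30 pairs, with 11 over 0.1. In 7 of the 30 pairs the same-numbered library was the best match among the 5 libraries of the later age. With the replicate block the counts of called levels stayed at 1, 1 and 1 and in the arm ratio the day 120 count was 0 (miR-98, log2 1.27, adjusted p = 0.0772 by limma).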

Other observations

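Summed over the family, the 3p strands took 533 ± 408, 894 ± 337, 653 ± 308 and 653 ± 429 RPM at days 1, 60, 120 and 180 (SD, n = 5 each), and their share of both arms was 0.504 ± 0.644, 0.333 ± 0.0598, 0.271 ± 0.104 and 0.255 ± 0.0963%. The highest share, 1.65%, was that of replicate 2 of day 1, and the other day 1 libraries ranged from 0.136 to 0.357%.

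Within day 1, marker miRNAs of some other cell types were highest in replicates 2 or 3, and those of others were not. The muscle list was highest in replicate 5 (2646 RPM), the microglia and immune list in replicate 1 (218 RPM) and the liver list in replicate 3 (1709 RPM). Replicate 3 of day 1 held 1533 RPM of the 2 matched erythroid markers and 924 RPM of both oligodendrocyte markers, each the highest of its age, and replicate 2 held 7688 RPM of the 5 matched choroid plexus and multiciliated cell markers, likewise the highest of its age. Day 60 held up to 11058 RPM of that list. Their part in the 3p levels was not tested.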
